A study of Mus musculus with 24 samples.

Results

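Casein kinase 2 (CK2) is a serine/threonine kinase that is active in nearly every cell and phosphorylates a very broad set of nuclear and cytoplasmic proteins. It works as a complex in which catalytic subunits are held together by a dimer of the regulatory subunit. Csnk2a1 encodes the catalytic subunit CK2α, Csnk2a2 encodes the paralogous catalytic subunit CK2α′, and Csnk2b encodes the regulatory subunit CK2β, which shapes substrate choice. The catalytic subunits can act without CK2β. The 3 genes were taken from 55291 genes in the read count files because Csnk2a1 hosts, in an intron, a copy of MERVL that the injected oligonucleotides match, and because its level was lower in the injected embryos. Csnk2a2 and Csnk2b were added as its paralog and its partner, not for their values. The lower level of Csnk2a1 in the knockdown is therefore a description throughout and carries no test.

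MERVL is an endogenous retrovirus that is transcribed strongly in 2-cell mouse embryos at genome activation. Zygotes from B6D2F1 mice (8 weeks old; the labels give the background strain as BDF2) were injected into the male pronucleus with 20 µM antisense oligonucleotides (ASOs), either a mix of 3 ASOs against MERVL (MERVL-KD) or a scrambled ASO (control). Total RNA was sequenced from pools of 30 embryos without zona pellucida at the 2C stage (1.5 days post-coitum), the 4C stage and the 8C stage (both labelled 2.5 days), with 2 replicates in each of 6 groups. The embryo pools were staged by eye, every group carried an injected oligonucleotide, and no uninjected embryos were used. In these bulk pools, fewer cells expressing a gene and less of its RNA per cell cannot be told apart.

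The 12 libraries held 28167085 to 41482526 counts, of which 15.8% to 25.2% fell on repeat families. MERVL-int, the internal part of the targeted element, took 1.07% to 6.57% of the counts in control libraries and 0.0278% to 0.157% in MERVL-KD libraries. Stage markers followed the labels in the control libraries: the summed level of 5 genes of the 2C stage went from 579–638 CPM (counts per 1e6, scaled between libraries) at 2C to 6.34–7.73 at 8C, and that of 6 later-stage genes from 91.8–94.8 to 291–296 CPM. At 8C the later-stage genes summed to only 186–194 CPM in MERVL-KD, and at 2C the 2C genes to 309–391 CPM. The 3 maternal genes summed to 659–748 CPM in control and 387–459 in MERVL-KD at 2C. The part of these stage differences in the results on the 3 genes was not tested. Genes of cumulus cells, which surround the oocyte, summed to 0.256–4.05 CPM, with 1 to 6 of 7 detected.

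The sequences shown for the Csnk2a1 locus are those of the ASOs and of their sites within it. Csnk2a1 (ENSMUSG00000074698.10) lies on the plus strand of chromosome 2 from 152226839 to 152281852 (GRCm38) and its main coding transcript has 13 exons and 391 codons. All 3 MERVL ASOs have a site in its intron 8, a stretch of 9334 bp from 152263294 to 152272627 that follows the exons holding 52.9% of the coding sequence. The sites lie in the transcribed strand, so that the unspliced transcript of Csnk2a1 carries sequence complementary to the ASOs. The exons of this transcript do not contain the sites. The ASOs, written 5′ to 3′, are:

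MERVL-ASO1: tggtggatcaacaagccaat

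MERVL-ASO2: catttgtctgtttaccacga

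MERVL-ASO3: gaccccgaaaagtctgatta

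Scramble-ASO: agcgcgggtattgaaccagg

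The sites in the transcribed strand of Csnk2a1 follow with 5 flanking bases on each side, where capitals mark the 20 bases that face the ASO. They run from chr2:152263922-152263941, chr2:152265495-152265514 and chr2:152265747-152265766.

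Csnk2a1, ASO1 site: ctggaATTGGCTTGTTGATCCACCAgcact

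Csnk2a1, ASO2 site: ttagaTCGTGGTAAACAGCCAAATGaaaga

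Csnk2a1, ASO3 site: ggaaaTAATCAGACTTTTCGGGGTCtgttg

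The ASO1 and ASO3 sites pair with 0 mismatches. The ASO2 site has 1 mismatch, T7G, in which the first letter is the base of the ASO, the position is counted from its 5′ end, and the last letter is the base that would pair with the site. ASO2 has no exact site in the reference genome and 322 sites with 1 mismatch, against 702 exact sites of ASO1 and 630 of ASO3. The other 2 subunit genes hold nothing alike: the best match of any MERVL ASO to the transcribed strand has 6 mismatches in Csnk2a2 (chromosome 8, 95446096 to 95490039, minus strand) and 6 in Csnk2b (chromosome 17, 35116196 to 35122053, minus strand). The scrambled ASO has at least 6 mismatches to Csnk2a1.

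**Figure D1:**
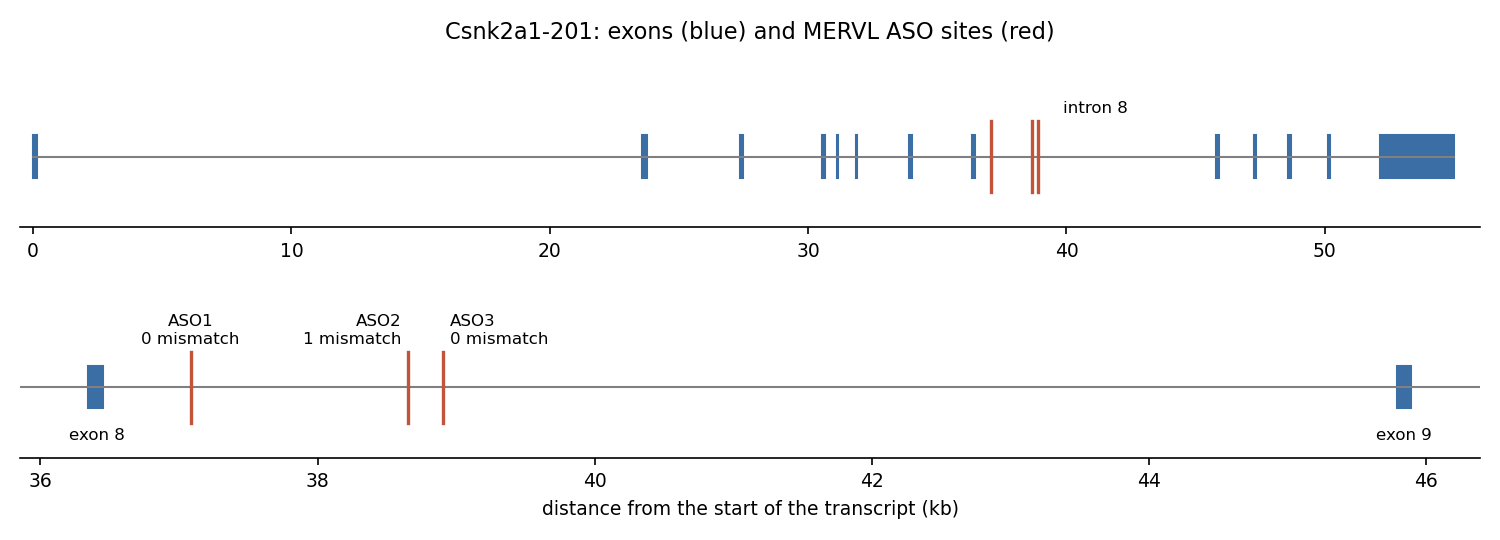
Exon map of the main coding transcript of Csnk2a1, with exons as blue boxes and ASO sites as red lines against the distance from the transcript start in kb. The upper axis shows the whole gene and the lower axis intron 8, where the 3 sites lie 629, 2202 and 2454 bp after the intron's start.

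The level of Csnk2a1 was lower in MERVL-KD than in control embryos at every stage, and by the most after 2C. Levels below are CPM after TMM scaling over the 12 libraries. In control embryos Csnk2a1 stood at 217 and 211 CPM at 2C, 161 and 158 at 4C, and 180 and 171 at 8C. In MERVL-KD embryos it stood at 152 and 153 CPM at 2C, 37.0 and 36.1 at 4C, and 31.8 and 35.8 at 8C. The groups did not overlap at any stage, and the replicates of a group lay close together. The mean in MERVL-KD was 71.1% of the control mean at 2C, 22.9% at 4C and 19.3% at 8C. In the fit across all genes the log2 fold change was −0.41 ± 0.09 (SE, n = 2 against 2) at 2C, −2.12 ± 0.10 at 4C and −2.36 ± 0.11 at 8C. Counted from the lowest log2 fold change, Csnk2a1 ranked 3789 of 20604 genes at 2C, 267 of 19738 at 4C and 128 of 18414 at 8C. In these 3 comparisons 7.39%, 5.84% and 3.56% of all genes fell, that is, passed an adjusted p of 0.05 in the lower direction. Since this contrast chose the gene, nothing is read from its place.

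The fit scales only the 4 libraries it compares, and at 2C this moved log2 fold changes up by 0.08 against the ratio of the levels above. With scaling by library size alone, the median of all genes at 2C moved up by 0.29, and the log2 fold change of Csnk2a1 became −0.12. At 4C and 8C its values over all alternatives ran from −2.14 to −2.06 and from −2.45 to −2.24.

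The mean level of the paralog Csnk2a2 lay within 1.12-fold of control at every stage. At 2C the libraries stood at 78.7 and 87.5 CPM in control against 94.4 and 92.0 after the knockdown. The MERVL-KD libraries were the higher ones there, without overlap. At 4C it was 87.6 and 84.9 CPM in control against 79.2 and 87.9 in MERVL-KD, and at 8C 93.2 and 97.3 against 85.9 and 95.3. The groups overlapped at both later stages. Levels were scaled by TMM over all 12 libraries and each fit over its own 4, so a fitted change can differ from the ratio of mean levels. At 2C the log2 fold change of 0.25 (95% interval 0.05 to 0.46, 1.12-fold as a ratio of mean levels) did not pass the test (adjusted p = 0.101, edgeR quasi-likelihood), in a comparison where 14.1% of all genes passed. At 4C it was −0.04 (−0.27 to 0.19; adjusted p = 0.876; 10.8% of genes passed) and at 8C −0.06 (−0.29 to 0.16; adjusted p = 0.812; 5.06% of genes passed). With library size alone the 2C value became 0.54 and passed (adjusted p = 0.000715), while the median of all genes also moved up by 0.29.

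Csnk2b did not pass the test at any stage, although each MERVL-KD library stood below the control libraries of its stage. The share of all genes whose groups do not overlap was not counted, so no lack of overlap is read as a result. At 2C Csnk2b stood at 139 and 151 CPM in control against 122 and 122 in MERVL-KD. At 4C it stood at 93.6 and 86.1 CPM against 78.3 and 84.5, and at 8C at 94.7 and 105 against 84.8 and 86.9. The log2 fold changes were −0.16 (−0.35 to 0.03, adjusted p = 0.262) at 2C, −0.14 (−0.37 to 0.10, adjusted p = 0.479) at 4C and −0.21 (−0.43 to 0.01, adjusted p = 0.284) at 8C, all by edgeR. With library size alone the 2C value was 0.13. Neither Csnk2a2 nor Csnk2b thus counted among the genes called at any stage, and a p that misses the threshold does not show that their levels were equal.

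**Figure D2:**
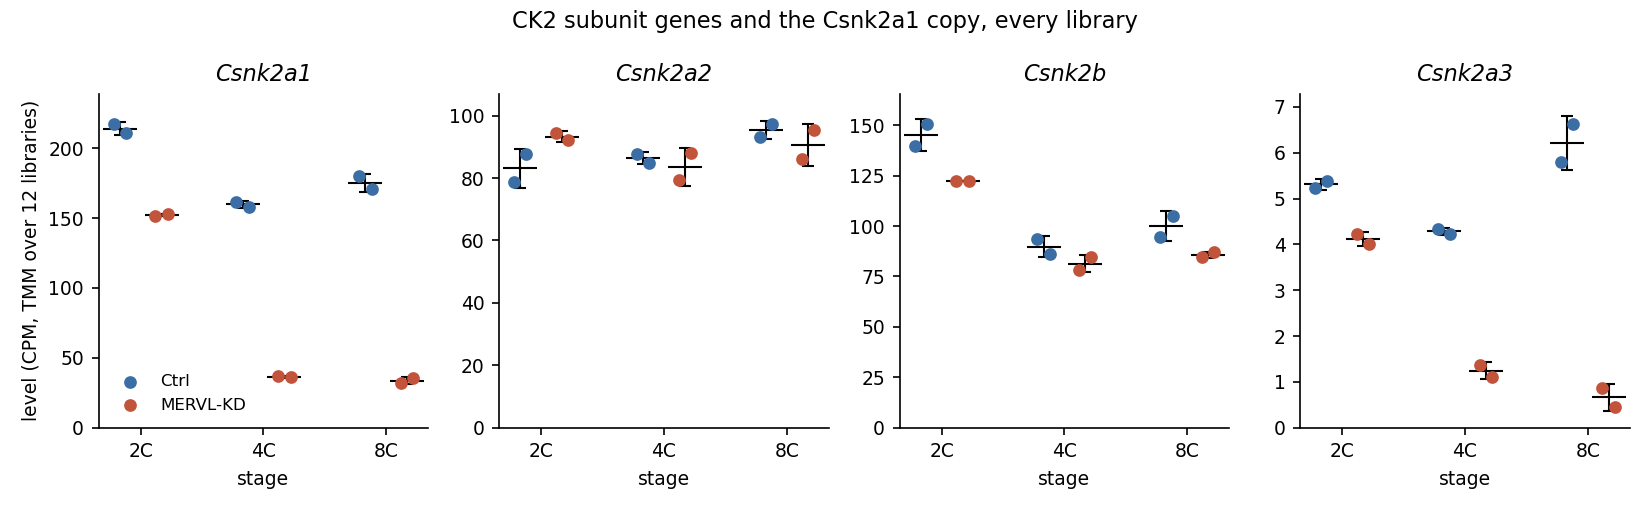
Level of the 3 CK2 subunit genes and of Csnk2a3, a near-identical copy of Csnk2a1, in CPM (vertical axis, TMM over 12 libraries) at 2C, 4C and 8C. Each point is a library (control blue, MERVL-KD red) and black bars are the mean ± SD (n = 2); Csnk2a1 stands at 31.8 to 37.0 CPM in MERVL-KD libraries at 4C and 8C, against 158 to 180 in control.

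Whether the effect of MERVL-KD differed between stages was tested in a single fit of the 12 libraries. For Csnk2a2 the effect at 4C minus that at 2C was −0.21 on the log2 scale (−0.52 to 0.10, adjusted p = 0.517), that at 8C minus 4C −0.03 (−0.34 to 0.28, adjusted p = 0.987), and that at 8C minus 2C −0.24 (−0.55 to 0.07, adjusted p = 0.460). For Csnk2b these differences were 0.10 (−0.20 to 0.40, adjusted p = 0.790), −0.08 (−0.38 to 0.23, adjusted p = 0.906) and 0.03 (−0.27 to 0.33, adjusted p = 0.967). None passed by edgeR, where 4.16%, 0.624% and 4.03% of all genes did. With library size alone the 4C minus 2C difference of Csnk2a2 was −0.52 (adjusted p = 0.0305), with the median of all genes moved by −0.30. For Csnk2a1 the corresponding values, with no test, were −1.64, −0.25 and −1.88, so that most of its difference arose between 2C and 4C.

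The stage changes in control embryos rest on libraries without the knockdown. For Csnk2a1 these libraries were also part of the contrast that chose it, so its tests here are not fully independent of that choice. Csnk2b and Csnk2a1 fell from 2C to 4C, and Csnk2a2 did not pass the test. Csnk2b fell by 0.61 on the log2 scale (SE 0.10, adjusted p = 0.000284), from 145 ± 7.91 to 89.8 ± 5.35 CPM (SD, n = 2). Csnk2a1 fell by 0.34 (SE 0.09, adjusted p = 0.00611), from 214 ± 4.78 to 160 ± 2.40 CPM. Csnk2a2 went from 83.1 ± 6.25 to 86.3 ± 1.92 CPM, with overlapping libraries (log2 fold change 0.14, −0.09 to 0.36, adjusted p = 0.248). In this comparison 65.9% of all genes passed the test and 33.9% in the lower direction. The falls of Csnk2b and Csnk2a1 passed under every alternative run, and their highest adjusted p values were 0.00246 and 0.0333.

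From 4C to 8C in control embryos no subunit gene passed the edgeR test, in a comparison where 10.3% of all genes did. The log2 fold changes were 0.12 for Csnk2a1 (adjusted p = 0.378), 0.13 for Csnk2a2 (adjusted p = 0.414) and 0.14 for Csnk2b (adjusted p = 0.409), and all 3 turned to −0.07 to −0.05 with library size alone, which moved the median of all genes by −0.19. Over the whole span from 2C to 8C, where 70.4% of genes passed, Csnk2b fell by 0.47 (SE 0.10, adjusted p = 0.00108). Csnk2a1 fell by 0.23 (SE 0.09, adjusted p = 0.0367) and Csnk2a2 rose by 0.26 (SE 0.10, adjusted p = 0.0358). The median of all genes stood at −0.12 in this comparison. The last 2 calls were not firm: the fall of Csnk2a1 was lost when any single library was left out (adjusted p 0.0516 to 0.136), and the rise of Csnk2a2 was lost without the control 2C library 1 or the control 8C library 2 (highest adjusted p = 0.138).

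In MERVL-KD embryos Csnk2b fell from 2C to 4C as well, from 122 ± 0.04 to 81.4 ± 4.36 CPM (log2 fold change −0.55, SE 0.10, adjusted p = 0.00108, in a comparison where 60.5% of genes passed). Csnk2a2 went from 93.2 ± 1.71 to 83.6 ± 6.15 CPM (−0.12, −0.36 to 0.13, adjusted p = 0.375). From 4C to 8C, where 1.84% of genes passed, the values were 0.11 (adjusted p = 0.728) for Csnk2a2 and 0.07 (adjusted p = 0.835) for Csnk2b. Csnk2a1, given without a test, went from 152 ± 0.69 CPM at 2C to 36.5 ± 0.58 at 4C (log2 fold change −2.02) and to 33.8 ± 2.79 at 8C (−0.12). Its level at 4C was 24.0% of that at 2C in MERVL-KD and 74.6% in control embryos.

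**Figure D3:**
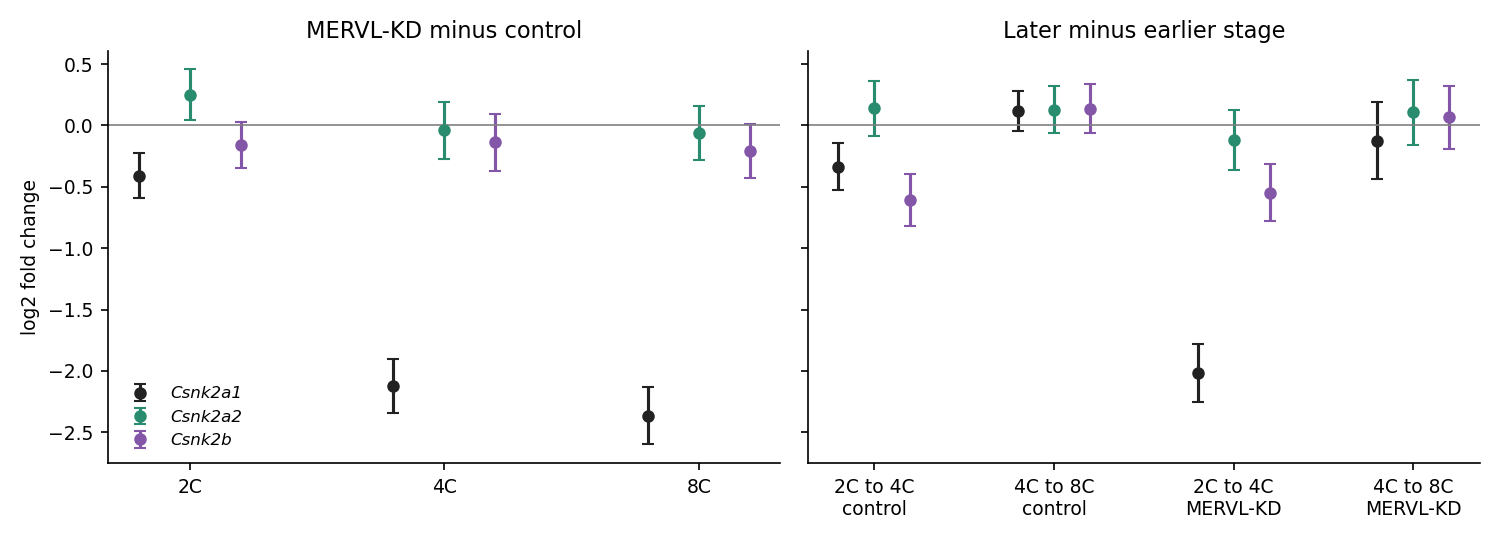
Log2 fold changes (vertical axis) of Csnk2a1 (black), Csnk2a2 (green) and Csnk2b (purple), with 95% intervals of the edgeR fit: on the left MERVL-KD minus control at each stage, on the right the later minus the earlier stage. Csnk2a1 reaches −2.12 and −2.36 at 4C and 8C, while the intervals of the other 2 genes at 4C and 8C include 0; the Csnk2a1 values with MERVL-KD libraries are a description.

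Per kilobase of annotated exon (7089 bp for Csnk2a1, 9565 for Csnk2a2 and 2067 for Csnk2b), the order of the levels in control embryos was Csnk2b, Csnk2a1, Csnk2a2 at each stage. At 2C Csnk2b stood at 70.2 ± 3.83 CPM per kb, Csnk2a1 at 30.2 ± 0.67 and Csnk2a2 at 8.69 ± 0.65. At 8C the values were 48.3 ± 3.59, 24.7 ± 0.91 and 9.96 ± 0.30. No libraries of neighbouring genes in this order overlapped. The place of Csnk2b depended on the length used. Coding lengths were those of the longest annotated coding transcript, which for Csnk2b was Csnk2b-207 with 257 codons. A shorter coding transcript would raise the level of Csnk2b per kb, and none was tried. Per kb of coding sequence (1173, 1050 and 771 bp), Csnk2a1 and Csnk2b stood at 182 ± 4.07 and 188 ± 10.3 CPM in control at 2C, with overlapping libraries. On that scale Csnk2a1 was the higher one at 4C (136 ± 2.04 against 117 ± 6.94) and 8C (149 ± 5.50 against 130 ± 9.64), without overlap, and Csnk2a2 stayed lowest. In MERVL-KD embryos the order of the catalytic pair was turned at 4C and 8C: Csnk2a1 stood at 5.16 ± 0.08 and 4.77 ± 0.39 CPM per kb, below Csnk2a2 at 8.74 ± 0.64 and 9.48 ± 0.69. At 2C Csnk2a1 (21.5 ± 0.10) was still above Csnk2a2 (9.75 ± 0.18).

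As a share of the catalytic mRNA per kb, Csnk2a1 made up 78.8% and 76.5% in the control libraries at 2C, 71.3% and 71.5% at 4C, and 72.2% and 70.3% at 8C. In MERVL-KD libraries it made up 68.4% and 69.1% at 2C, 38.6% and 35.7% at 4C, and 33.3% and 33.6% at 8C. The shares did not overlap between conditions at any stage. With the coding length (1173 and 1050 bp) in place of the exon length the shares were lower in all groups, with 62.2% (control) against 25.0% (MERVL-KD) at 8C. The catalytic mRNA of both genes together was 34.7 ± 0.61 CPM per kb in control and 14.2 ± 1.09 in MERVL-KD at 8C, and 38.9 ± 0.02 against 31.2 ± 0.08 at 2C.

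Relative to the regulatory subunit, a ratio within a library that no scaling changes, the catalytic sum stood at 0.555 ± 0.03 of Csnk2b in control and 0.527 ± 0.001 in MERVL-KD at 2C. It stood at 0.727 ± 0.03 against 0.353 ± 0.005 at 4C and at 0.720 ± 0.07 against 0.343 ± 0.02 at 8C. With coding lengths the same ratio was 1.39 ± 0.07 against 1.38 ± 0.006 at 2C, where the libraries overlapped, 1.88 ± 0.08 against 1.05 ± 0.005 at 4C, and 1.86 ± 0.16 against 1.03 ± 0.06 at 8C. Those coding-length ratios rest on the longest coding transcript of Csnk2b, and a shorter one would lower them. The ratio of Csnk2a2 to Csnk2b leaves out the gene that was chosen by its values. It was 0.122 and 0.126 in control against 0.167 and 0.163 after the knockdown at 2C, 0.202 and 0.213 against 0.219 and 0.225 at 4C, and 0.213 and 0.200 against 0.219 and 0.237 at 8C. The MERVL-KD libraries were higher at each stage without overlap, by the most at 2C. At both 4C and 8C the highest control library stood at 0.213 and the lowest MERVL-KD library at 0.219. How often ratios of other gene pairs separate in this way was not counted, and neither gene's own change passed the test. A two-sided exact permutation test of 2 against 2 libraries cannot give a p below 0.333, and none was run. These ratios concern mRNA only, and protein was not measured here.

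**Figure D4:**
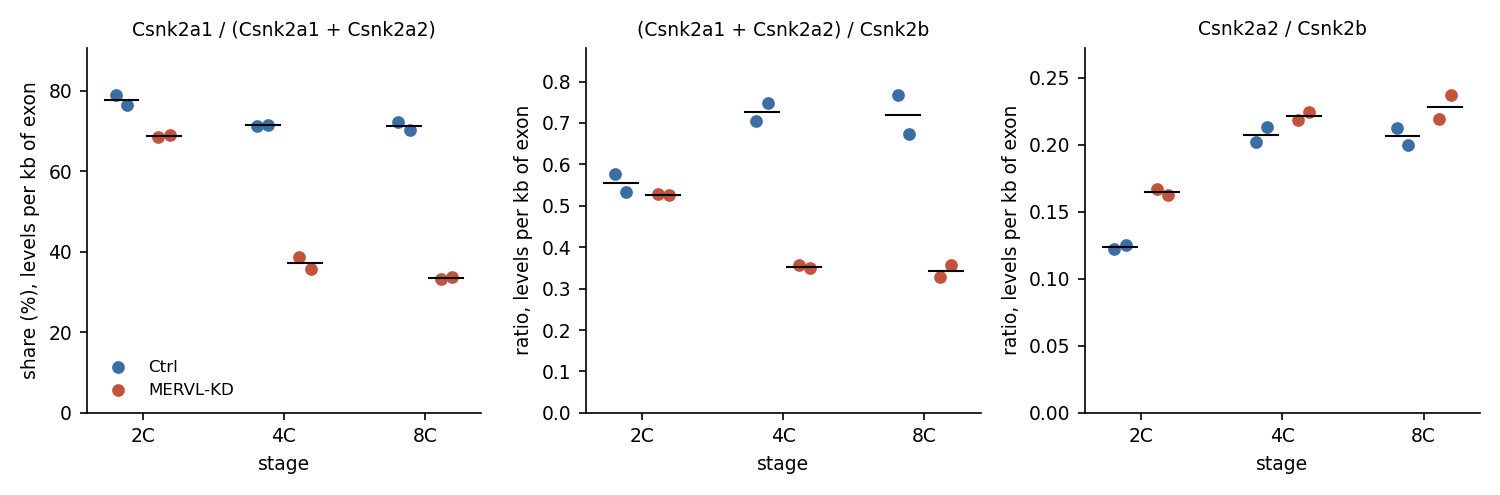
Within-library comparison of the subunit mRNAs, from levels per kb of exon: the share of Csnk2a1 in the catalytic level (%), the ratio of both catalytic genes to Csnk2b, and the ratio of Csnk2a2 to Csnk2b, by stage. Points are libraries (control blue, MERVL-KD red) and lines the means of 2; the Csnk2a1 share drops to 33.3% to 38.6% in MERVL-KD at 4C and 8C, while Csnk2a2 to Csnk2b lies between 0.200 and 0.237 there in all libraries.

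Csnk2a3 is a copy of Csnk2a1 without introns on chromosome 1 (156524012 to 156526644, plus strand). It is 99.6% identical to the Csnk2a1 transcript over 2635 aligned bp, and 44.8% of all 150-base windows of that transcript occur unchanged in it. A read from such a window has no unique place unless its mate gives one, and the authors kept unique alignments only, so that part of the Csnk2a1 reads may be missing from its count and its level per kb may be too low. Conversely, counts at Csnk2a3 can come from Csnk2a1 mRNA, and the rows are not independent. Csnk2a3 had 122 to 198 counts in control libraries. In MERVL-KD libraries it had 178 and 142 counts at 2C, 50 and 38 at 4C, and 30 and 18 at 8C. Its mean level went, as that of Csnk2a1, from 5.31 to 4.12 CPM at 2C, from 4.29 to 1.24 at 4C and from 6.21 to 0.663 at 8C (log2 fold changes −0.28, −1.78 and −3.22, no test). Adding its counts to Csnk2a1 moved the Csnk2a1 share by less than 1 percentage point in every group. Csnk2a2 shares no such window with Csnk2a1 and is 76.4% identical to it over 971 bp. Csnk2ip, listed for its name as a CK2 interacting protein, was tested in none of the comparisons, and no value is given for it.

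No gene overlaps Csnk2a1, and 8 genes lie within 100 kb of it. None of the 8, 8 and 6 tested at 2C, 4C and 8C fell, where 7.39%, 5.84% and 3.56% of all genes did. At 2C 1 of the 8 rose, where 6.7% of all genes did. With so few genes, these counts are not read as a result about the locus. Tbc1d20, which starts 11976 bp downstream on the same strand and encodes a GTPase-activating protein of Rab GTPases, rose at 2C from 56.4 to 72.1 CPM (log2 fold change 0.44, SE 0.11, adjusted p = 0.0157 by edgeR). At 4C and 8C its values of 0.20 and 0.11 did not pass (adjusted p = 0.250 and 0.638). Rbck1, a subunit of the linear ubiquitin ligase complex, stood at 13.0 against 14.8, 21.2 against 27.3 and 26.5 against 29.0 CPM (control first) at the successive stages, and its lowest adjusted p was 0.203. Trib3, a pseudokinase of the stress response, had a log2 fold change of 0.38 at 2C (adjusted p = 0.0860), and Tcf15, a mesodermal transcription factor, 0.73 at 4C (adjusted p = 0.162). Rps15a-ps7, Gm14164, Gm14165 and Nrsn2 did not pass at any stage where they could be tested. At 8C the 6 tested neighbours lay between −0.19 and 0.19.

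Around Csnk2a2, 2 of the 6 tested neighbours rose at 2C and 2 of 6 at 4C, where 6.7% and 4.92% of all genes rose, and none of 7 passed at 8C. They were chosen after their values were seen. Mmp15, a membrane-bound matrix metalloproteinase 71016 bp away, rose from 3.31 to 8.11 CPM at 2C (log2 fold change 1.38, adjusted p = 0.00136) and from 1.14 to 6.00 at 4C (2.41, adjusted p = 0.00262). Usb1, an RNA exonuclease that trims U6 RNA, rose at 2C by 0.71 (adjusted p = 0.0294). Gm45853, inside the Csnk2a2 span but outside its exons, rose at 4C by 1.50 (adjusted p = 0.0250). Csnk2b sits in the gene-dense major histocompatibility region with 33 genes within 100 kb. Gpank1, on the opposite strand, overlaps 599 bp at the start of Csnk2b, exons included, and fell at 4C from 25.1 to 14.8 CPM (−0.76, adjusted p = 0.0136) and at 8C from 23.2 to 13.9 (−0.73, adjusted p = 0.0309). The strand setting of the counting is not given in the sources used here, so reads of the overlap cannot be told apart. Ltb, which encodes lymphotoxin beta, rose at 4C by 1.44 (adjusted p = 0.0273). No other neighbour of Csnk2b passed. Of 22, 23 and 20 tested at 2C, 4C and 8C, 0, 1 and 0 rose and 0, 1 and 1 fell. Over all genes 14.1%, 10.8% and 5.06% passed in either direction, so these counts are not read as a result about the locus.

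Genes with a MERVL ASO site (at most 2 mismatches) in an intron on the transcribed strand and none in an exon number 168 in the annotation. Csnk2a1 is among them, and so are short genes of about the length of a MERVL element, given below. At 2C 42 of the 148 tested fell at least 2-fold, at 4C 52 of 139, and at 8C 42 of 133. Over all genes, 2.24%, 1.88% and 1.06% were called lower at these stages. Their median log2 fold changes were −0.53, −0.91 and −0.68, against 0.01, 0.03 and 0.01 over all genes. Genes with intron sites only on the opposite strand had medians of −0.16, −0.17 and −0.00, with 6 of 124, 6 of 120 and 3 of 102 called lower at 2C, 4C and 8C. Csnk2a1 ranked 83 of 148, 31 of 139 and 29 of 133 from the lowest value.

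The lowest values at 8C belonged to short genes of about the length of a MERVL element. Gm49015 (5131 bp, chromosome 14), Gm50331 (5132 bp, chromosome 19) and Gm50210 (5092 bp, chromosome 19) had 223 and 208, 127 and 166, and 102 and 141 counts in the control 8C libraries and 0 in both MERVL-KD libraries. With a floor of 3 counts per library they were at least 87.0-fold, 58.7-fold and 48.7-fold lower. Among the 147 genes with a span over 10 kb, a split made after the values were seen, 24 of 128, 34 of 120 and 26 of 114 were called lower, and Csnk2a1 ranked 64, 14 and 12.

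The genes whose pattern over the 12 libraries was most like that of Csnk2a1, by Pearson's r of log2 CPM among 16277 genes tested at every stage, were Arl15 (r = 0.991), Tubgcp2 (0.985), Lonp2 (0.969), Fiz1 (0.966) and Trak2 (0.963). This r describes 12 libraries that fall into 6 groups and carries no test. Arl15, a small GTPase of the ARF-like family, Tubgcp2, a component of the γ-tubulin complex, Lonp2, a peroxisomal protease, and Trak2, an adaptor of mitochondrial transport, are all among the 168 intron hosts, and Fiz1, a zinc finger protein, is not. At 8C Arl15 stood at 31.3 CPM in control against 6.21 after the knockdown, Tubgcp2 at 14.9 and 0.780, Lonp2 at 41.2 and 8.51, Trak2 at 46.7 and 3.84, and Fiz1 at 77.5 and 47.6. Each had a smaller log2 difference at 2C (−1.49 to −0.21) than at 8C (−4.24 to −0.69). These genes were picked by r with Csnk2a1 over the same libraries, MERVL-KD ones included. That they share its pattern follows from this choice and is no separate result. The share of intron hosts among the 16277 genes is not given here, so their host status is a description only.

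For Csnk2b the nearest patterns were 1810013L24Rik (r = 0.986), Nup50, a nuclear pore component (0.980), and Orc6, a subunit of the origin recognition complex (0.979). All 3 were lower at 4C than at 2C in control, as Nup50 at 103 against 321 CPM. Being picked by r with Csnk2b over the same libraries, they share its fall by choice. For Csnk2a2 the highest r values were lower, at 0.856 for Ovgp1, the oviductal glycoprotein, 0.826 for Gm45629 and 0.817 for Sh3d21. Ovgp1 and Gm45629 stood at or under 4.03 CPM in all groups, where r rests on few counts. Between the members, r was 0.718 for Csnk2a1 with Csnk2b, 0.125 for Csnk2a1 with Csnk2a2, and 0.053 for Csnk2a2 with Csnk2b.

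Proteins that work with CK2 or are its textbook substrates were followed as 2 lists, and the casein kinase 1 (CK1) family, a separate kinase family with a like name, as another. None of the 40 genes has a MERVL ASO site in its transcribed strand, and all 40 were tested. At 2C 1 rose and 4 fell, at 4C 3 rose and 3 fell, and at 8C 2 rose and 3 fell. These are 12.5%, 15% and 12.5% of the list genes, against 14.1%, 10.8% and 5.06% of all genes. None changed at least 2-fold in edgeR at an adjusted p under 0.05 or in DESeq2, and at an unadjusted p under 0.05 there were 8, 20 and 9, of which 0, 1 and 0 changed at least 2-fold. Over all genes 27%, 25.1% and 19.5% had an unadjusted p under 0.05 at 2C, 4C and 8C. The genes named next were picked after their values were seen.

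Of 8 CK2 partners, Nolc1, a nucleolar phosphoprotein that CK2 phosphorylates heavily, rose at 2C (0.31, adjusted p = 0.0161) and fell at 4C (−0.34, adjusted p = 0.0244). Tcof1, another nucleolar CK2 target, fell at 4C (−0.49, adjusted p = 0.00558), and Hsp90aa1, an HSP90 chaperone, fell at 8C from 2484 to 1889 CPM (−0.39, adjusted p = 0.00763). Ssrp1 and Supt16, the FACT histone chaperone that forms a complex with CK2, lay between −0.11 and 0.03 at all stages. The median of the list was 0.08, −0.04 and −0.15 at 2C, 4C and 8C.

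Of 26 CK2 substrates, 4 fell at 2C. They were Wee1, a kinase that restrains mitotic entry (−0.95, adjusted p = 0.000155), Hdac1, a histone deacetylase (−0.55, adjusted p = 0.000633), Top2a, DNA topoisomerase II (−0.53, adjusted p = 0.00323), and Ptges3, an HSP90 co-chaperone (−0.28, adjusted p = 0.0376). Hdac1 passed at all 3 stages, going from 335 ± 7.83 to 212 ± 4.96 CPM at 4C (adjusted p = 0.000722) and from 412 ± 4.92 to 286 ± 43.2 at 8C (adjusted p = 0.0125). At 4C Ctnnb1, the β-catenin gene (0.39, adjusted p = 0.0216), and Cdc34, a ubiquitin-conjugating enzyme (0.47, adjusted p = 0.0446), rose. At 8C Mdc1, a DNA damage mediator, fell (−0.39, adjusted p = 0.0451). The medians were −0.13, 0.18 and −0.03. With library size alone 15 of the 40 list genes passed at 2C in place of 5.

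In the CK1 family no member passed at 2C, and the values ran from −0.19 to 0.20. Csnk1g1 rose at 4C (0.46, adjusted p = 0.0151) and at 8C from 94.8 ± 0.48 to 134 ± 3.08 CPM (0.51, adjusted p = 0.00922), and Csnk1g3 rose at 8C from 68.7 ± 5.61 to 99.3 ± 9.50 CPM (0.54, adjusted p = 0.0178). The other 4 members lay between −0.14 and 0.27 at 4C and 8C and did not pass.

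**Figure D5:**
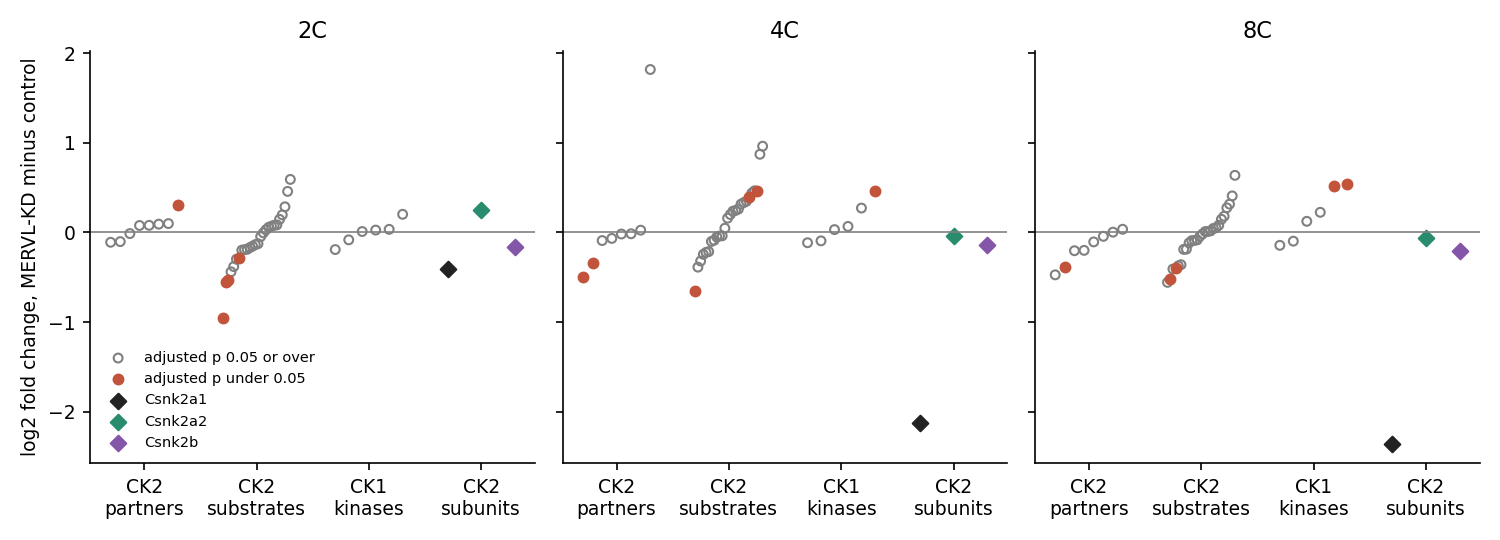
Log2 fold changes of MERVL-KD minus control (vertical axis) for CK2 partners, CK2 substrates and CK1 kinases at 2C, 4C and 8C, ordered by value within each list, with the 3 CK2 subunit genes as diamonds. Filled red points passed an adjusted p of 0.05 and open grey points did not; all tested list genes lie between −0.95 and 1.82, above Csnk2a1 at 4C and 8C.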

How the data were processed

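RNA was measured in 12 libraries and chromatin accessibility in others that were not used here. The authors aligned paired 150-base reads to GRCm38 with STAR (2.5.3a), kept unique alignments, and deposited read counts per gene (GENCODE vM25) and per repeat family made with featureCounts, without normalization. Even numbers made up 71.8% to 74.7% of counts from 1 to 50, so both mates were mostly counted.

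Counts were tested in edgeR 4.0.16 (R 4.3.3) with filterByExpr, TMM and the robust quasi-likelihood test, each contrast on its own 4 libraries and differences between stages on all 12. P values were adjusted by Benjamini-Hochberg over all genes and repeat families tested, and "rose", "fell" and "passed" mean an adjusted p under 0.05 by edgeR; calls at least 2-fold are named as such. All 3 genes passed the filter in every fit. SE and 95% intervals come from the same fit. CPM levels were scaled over all 12 libraries. DESeq2 1.42.0, other scalings and filters, the replicate number as a block, and the loss of each library were alternatives. The fits were tested on simulated data. ASO sites were sought in GRCm38 with up to 2 mismatches, and transcripts were compared with BLAST 2.17.0 on GENCODE vM21 models. ASO sequences were those listed by the study.

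The replicates are given as biological by the study. Replicate numbers did not pair the libraries (correlation of replicate differences −0.013, −0.00074 and 0.0074 at 2C, 4C and 8C). The members and lists were chosen with earlier results of these data known. In the CK2 substrate list 1 gene is not reported here. Genes named are the 3 members, the copies of Csnk2a1, genes within 100 kb of it, list genes called at least 2-fold, the CK1 family as a range, the genes most alike in pattern (5 for Csnk2a1, 3 for each of the others), MERVL-int and the 3 lowest intron hosts at 8C; others are marked where they stand.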

Additional observations from a re-analysis of the deposited data

Results flagged for a closer look

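The effect of MERVL-KD (log2 fold change against control) differed between stages for 8 of the 50 genes looked at, which were Csnk2a2, Csnk2b, the 40 list genes and the 8 neighbours of Csnk2a1. What singled them out was the interaction term of the edgeR fit of 12 libraries with an adjusted p under 0.05. Neither Csnk2a2, Csnk2b nor a neighbour of Csnk2a1 was among them, and Csnk2a1 itself was not tested. By difference, 4 of the 50 passed for 4C minus 2C, 1 for 8C minus 4C and 5 for 8C minus 2C (8%, 2% and 10%), against 4.16%, 0.624% and 4.03% of all genes.

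Among the CK2 substrates, Wee1 moved from −0.95 at 2C to −0.10 at 4C (difference 0.93, adjusted p = 0.0342 by edgeR). Xrcc1, a scaffold of single-strand break repair, moved from −0.44 to 0.24 (difference 0.77, adjusted p = 0.0328). Cdc25b, a phosphatase that promotes mitotic entry, moved from −0.38 to 0.33 (difference 0.79, adjusted p = 0.0338). From 2C to 8C, Cdc25b moved from −0.38 to 0.31 (difference 0.77, adjusted p = 0.0385) and Top2a from −0.53 to −0.04 (difference 0.56, adjusted p = 0.0312). Stage values come from the fit of each stage and differences from the fit of 12 libraries. Hdac2, a histone deacetylase, stood at 0.35 at 4C and −0.41 at 8C, a difference of −0.76 (adjusted p = 0.0380).

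Of the CK2 partners, Nolc1 moved from 0.31 at 2C to −0.34 at 4C (difference −0.57, adjusted p = 0.0100) and −0.20 at 8C (difference to 2C −0.44, adjusted p = 0.0489). In the CK1 family, Csnk1g3 moved from 0.01 at 2C to 0.54 at 8C (difference 0.61, adjusted p = 0.0196 by edgeR). Csnk1g1 moved from 0.03 to 0.51 (difference 0.55, adjusted p = 0.0383). No cause of these differences was tested.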

How the results depend on the processing

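Depth did not limit the 3 genes, with at least 1104 counts each in every library, but 2 libraries a group did, and intervals cover the spread between these libraries only. The lower level of Csnk2a1 in MERVL-KD kept its direction under all alternatives run. Scaling by library size alone moved the median of all genes. Under it Csnk2a1 in MERVL-KD stood at −0.12 at 2C and −2.06 at 4C, Csnk2a2 at 0.54, 0.021 and 0.061 at 2C, 4C and 8C, and Csnk2b at 0.13 at 2C. The control changes from 4C to 8C became −0.072 (Csnk2a1), −0.061 (Csnk2a2) and −0.051 (Csnk2b), and that of Csnk2a2 from 2C to 8C became 0.16 (adjusted p = 0.165). In MERVL-KD embryos Csnk2a2 became −0.29 from 2C to 4C and −0.021 from 4C to 8C, and Csnk2b −0.060 from 4C to 8C. The differences between stages became −0.52 (4C minus 2C) and 0.041 (8C minus 4C) for Csnk2a2, and −0.20 (4C minus 2C) and −0.21 (8C minus 2C) for Csnk2b, and 15 list genes passed at 2C.

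In a single fit of 12 libraries Csnk2a1 stood at −0.49 in MERVL-KD at 2C, and Csnk2a2 from 2C to 8C in control at 0.20 (adjusted p = 0.120). That change was 0.22 with all genes of at least 1 count (adjusted p = 0.131), and that of Csnk2a1 was −0.21 with DESeq2 size factors (adjusted p = 0.0552) and −0.21 with DESeq2 (adjusted p = 0.0585). The cause of these moves was not tested.

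With 1 library left out, which assumes that the lone library varies like the others, the MERVL-KD effect ran from −0.45 to −0.38 for Csnk2a1 at 2C, and for Csnk2a2 from −0.11 to 0.035 at 4C and from −0.14 to 0.0087 at 8C. From 2C to 8C in control the range was −0.26 to −0.18 for Csnk2a1 and 0.21 to 0.37 for Csnk2a2. The differences between stages ran from −0.41 to −0.14 (4C minus 2C), −0.10 to 0.084 (8C minus 4C) and −0.42 to −0.16 (8C minus 2C) for Csnk2a2, and for Csnk2b from −0.10 to 0.16 (4C minus 2C), −0.13 to 0.042 (8C minus 4C) and −0.15 to 0.081 (8C minus 2C).

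The share of Csnk2a1 with the counts of Csnk2a3 added was 69.3% (MERVL-KD 2C), 72.0% (control 4C) and 33.9% (MERVL-KD 8C). With GENCODE coding lengths, here and for the order of the levels chosen after seeing the data because the planned coding length from a RefSeq protein was not run, it was 69.7%, 62.4% and 62.2% in control libraries at 2C, 4C and 8C, and 59.4%, 28.2% and 25.0% under MERVL-KD. Halving the counts for the lists and the MERVL-KD stage changes, and adding Csnk2a3 for the control stage changes, were likewise chosen afterwards, changed no call of the 3 genes and left 5, 6 and 6 list genes past the test at 2C, 4C and 8C. The replicate number as a block, although it did not pair the libraries, changed no call of the 3 genes and left 4, 5 and 7 list genes past the test in place of 5, 6 and 5.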
